A study of Mus musculus with 2 samples.

Results

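The E2F transcription factors and the pocket proteins were followed on arrays of mouse hybridoma cells that had been given the bursal peptide BSP-II or left without it. A hybridoma is an antibody-secreting line, the product of a B cell fused to a myeloma cell. BSP-II comes from the bursa of Fabricius, the site of B cell development in birds. The untreated group was the line labelled 1H5F9 kept for 4 h at 0 µg/ml of BSP-II, and the treated group was the same line kept for 4 h at 5 µg/ml. Both were grown in RPMI medium with 20% fetal bovine serum. Each group was 1 single-colour Agilent array, so each dose stood on 1 RNA sample of 1 line.

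The members were the 10 genes E2f1 to E2f8, Rb1 and Rbl1, out of 17302 genes with a named probe. They were found as all gene probes whose accession belongs to one of these genes, which gave 14 probes on 32 spots. None of those spots was flagged as an outlier. All 10 genes had at least 1 probe well above background on both arrays, 13 probes in all. The remaining probe, an Rb1 probe, was well above background only with BSP-II. The family was selected on the log2 differences between these same arrays, which had been seen beforehand. Its differences are therefore a description, with no test.

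E2F proteins bind DNA and switch genes of DNA synthesis on or off, mostly as dimers with a DP protein. The pocket proteins, RB (from Rb1), p107 (from Rbl1) and p130 (from Rbl2), bind E2Fs and hold their target genes down until cyclin-dependent kinases phosphorylate them. E2F1, E2F2 and E2F3 are known as activators, E2F4 and E2F5 as partners of p107 and p130 in repression, E2F6 as a repressor that acts with Polycomb proteins, and E2F7 and E2F8 as atypical repressors that bind DNA without a DP partner. Several of these genes are themselves E2F targets, so their promoters are shown next.

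Promoter entries of 250 bases before to 50 bases after the start were found in RefSeq (GRCm38.p6) for 7 of the 10 members, 9 entries in all. They were searched on both strands for the E2F motif, written as TTTCCCGC, TTTCGCGC, TTTGCCGC or TTTGGCGC. A match was present in 4 of the 9 entries, those of E2f2, E2f3, E2f7 and Rbl1, each with 1 match. Of all 32544 different promoters of this length, 2.28% held a match. The 4 entries are printed because they are the members with a match, read 5′ to 3′ on the gene's strand, with the matched letters in capitals. E2f2 and E2f3 each had another entry without a match. Whether an entry covers the main start of its gene was not checked, in particular for E2f1. An entry without a match therefore does not mean a gene without the motif.
E2f2, chr4:136172024-136172323, plus strand: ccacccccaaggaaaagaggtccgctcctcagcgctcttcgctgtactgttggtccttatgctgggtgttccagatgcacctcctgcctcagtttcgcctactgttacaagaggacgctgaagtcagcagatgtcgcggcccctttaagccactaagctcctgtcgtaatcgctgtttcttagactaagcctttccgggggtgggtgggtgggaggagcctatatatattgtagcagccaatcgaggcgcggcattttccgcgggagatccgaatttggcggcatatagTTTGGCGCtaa
E2f3, chr13:29986014-29986313, minus strand: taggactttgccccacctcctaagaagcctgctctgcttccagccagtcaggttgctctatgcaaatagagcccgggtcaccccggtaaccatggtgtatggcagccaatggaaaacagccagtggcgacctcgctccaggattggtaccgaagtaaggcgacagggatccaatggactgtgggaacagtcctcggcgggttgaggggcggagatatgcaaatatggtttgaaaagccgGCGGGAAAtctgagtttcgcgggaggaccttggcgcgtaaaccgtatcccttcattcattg
E2f7, chr10:110745189-110745488, plus strand: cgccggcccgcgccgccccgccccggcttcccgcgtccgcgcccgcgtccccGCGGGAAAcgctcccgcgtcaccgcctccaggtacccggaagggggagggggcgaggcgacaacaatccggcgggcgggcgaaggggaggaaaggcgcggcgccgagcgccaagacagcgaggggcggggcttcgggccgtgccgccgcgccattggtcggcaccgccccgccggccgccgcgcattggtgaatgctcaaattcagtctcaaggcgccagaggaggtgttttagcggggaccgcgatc
Rbl1, chr2:157204485-157204784, minus strand: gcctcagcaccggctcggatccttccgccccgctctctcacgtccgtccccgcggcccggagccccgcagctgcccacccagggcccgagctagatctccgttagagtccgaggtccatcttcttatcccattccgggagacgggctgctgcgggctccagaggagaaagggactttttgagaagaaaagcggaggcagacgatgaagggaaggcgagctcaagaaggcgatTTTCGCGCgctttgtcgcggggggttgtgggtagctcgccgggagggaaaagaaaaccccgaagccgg
The match was 18 bases before the start in Rbl1, 11 bases before it in E2f3, 198 bases before it in E2f7 and 39 bases after it in E2f2. In E2f3 and E2f7 it was read on the opposite strand. The letters describe these windows alone. The genes that carry them went both ways on the arrays, as the values below show.

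Among the members, E2f2 showed the lowest difference and lay below the 5th percentile of probes of its brightness. Rb1 was slightly higher with BSP-II and Rbl1 slightly lower. E2f8 was lower and E2f7 slightly higher, while E2f1, E2f5 and E2f6 stayed near the middle of all probes and the 3 probes of E2f3 disagreed. None of the 13 measured probes differed by 1.5-fold or more in either direction, on arrays where 1.43% of 24465 probes were at least 1.5-fold higher and 5.91% at least 1.5-fold lower.

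Signals are given in scanner units, as Agilent's processed signal. They were scaled to the 75th percentile of each array, 309 without BSP-II and 356 with it, so an equal signal on both gives a log2 difference of −0.21. Differences are BSP-II minus untreated. The median over all probes well above background on both arrays was −0.04, with quartiles of −0.22 and 0.11. Scaling to the array median adds 0.12 to every difference, so the members are read against the median of all probes and not against 0. The scanner's own error of a difference was 0.20 to 0.21 for every measured member probe except that of E2f4. For these it was at most 10.4% of the signal on either array, and it leaves out differences between cultures.

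**Figure D1:**
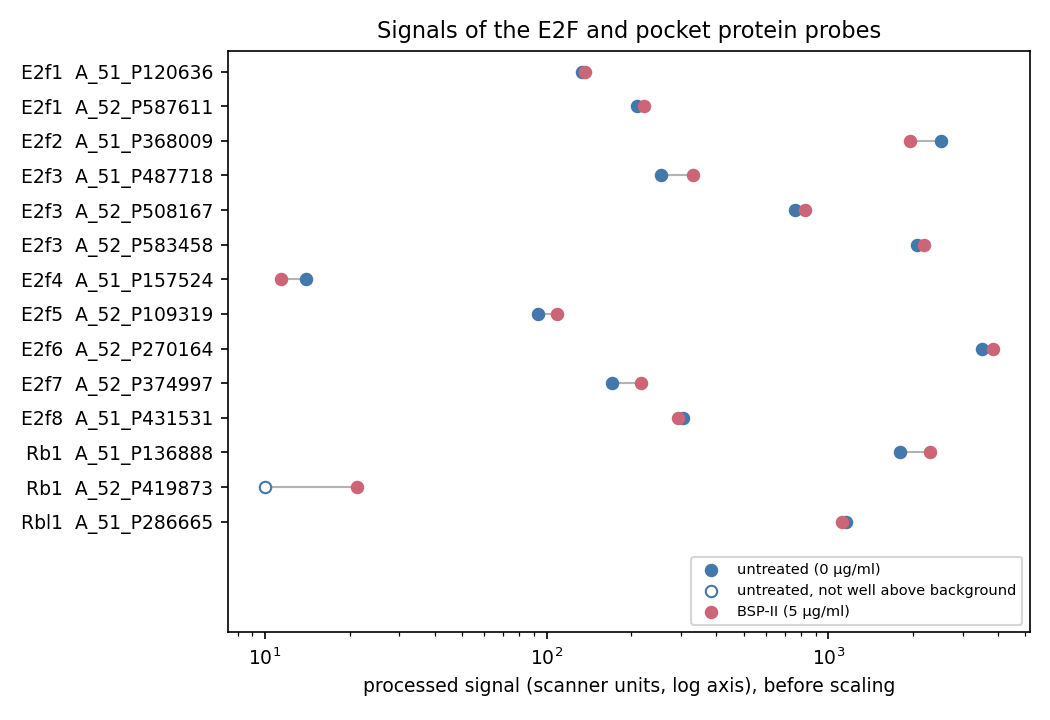
Processed signal of each of the 14 probes (scanner units, log axis, before scaling) on the untreated array (blue) and the BSP-II array (red), with an open circle where the probe was not well above background. The lines are short for all probes except the second Rb1 probe, which lies near background.

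The activator E2f2 gave a signal of 2501 without BSP-II and 1945 with it. It was 1 of 4 measured member probes whose signal was lower with BSP-II even before scaling, since 9 of the 13 had a higher one, against 73.4% of all probes. After scaling the log2 difference was −0.57 (1.48-fold lower), with a scanner error of 0.20, from a single spot of its only probe. Among the 500 probes nearest to it in level, the 5th to 95th percentile ran from −0.36 to 0.24, and only 1.0% were lower than E2f2. Of all probes, 6.24% were lower. It was the only one of the 13 outside the 5th to 95th percentile of its own level. By definition 5% of probes lie beyond each end of such a range, so 1 of 13 is near the share of any probes.

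E2f1, the founding activator, was measured by 10 spots of 1 probe and 1 spot of another. Over the 10 spots the untreated signals had a lowest value of 119, a median of 134 and a highest of 144, and the BSP-II signals had 129, 137 and 145. These ranges overlap. After scaling the mean difference was −0.17, with an SD over spots of 0.05, and all 10 spots lay below the median of all probes. Only 1 of these spots lay in a patch of the array where neighbouring spots differed strongly. The other probe went from 209.9 to 222, a difference of −0.13. Both values lie within the quartiles of probes of like level, so E2f1 was not set apart from probes of its brightness. E2f1 and E2f2 differed from each other by 0.40, with a combined scanner error of 0.29.

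E2f3, which yields more than 1 protein form from separate promoters, was read by 3 probes. The first went from 254 to 330.2, the second from 759 to 825 and the last from 2056 to 2175. The log2 differences were 0.17, −0.09 and −0.12. The first is above the median of all probes and the others are below it, so the direction of E2f3 depends on the probe. The first and the last differed by 0.30, about the combined scanner error of 0.29. The files do not say which transcript form each probe reads.

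**Figure D2:**
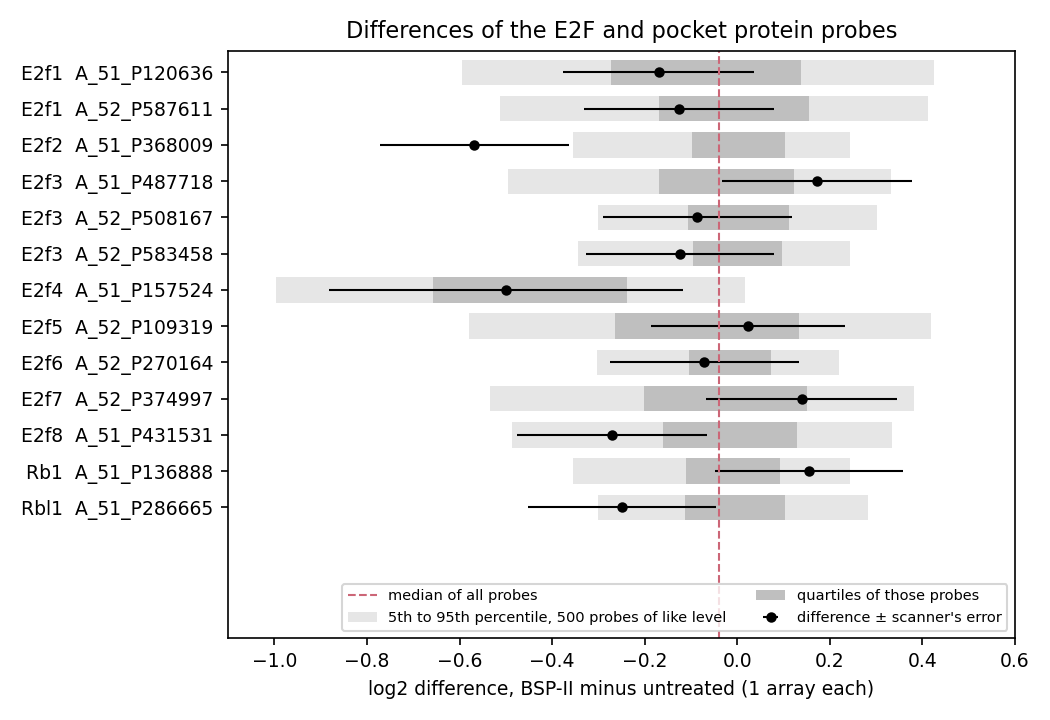
Log2 difference (BSP-II minus untreated, 1 array each) of the 13 probes well above background on both arrays, with the scanner's error as bars; grey bars give the 5th to 95th percentile and the quartiles of the 500 probes nearest in level, and the dashed line is the median of all probes. E2f2 at −0.57 is the only point outside its light bar, and E2f4 at −0.50 lies inside the quartiles of its level.

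Of the repressive E2Fs, E2f4 had the next lowest difference after E2f2, but at a signal close to the detection limit. Its probe gave 14.0 without BSP-II and 11.4 with it, where the lowest signals counted as well above background were 11.4 and 7.66. The difference was −0.50, with a scanner error of 0.38. Probes this dim were mostly lower with BSP-II. The 500 probes of like level had a median of −0.43 and quartiles of −0.66 and −0.24, and 42.0% of them were lower than E2f4. E2f4 therefore sat in the middle of probes as dim as itself.

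E2f5 went from 93.1 to 109, a difference of 0.02. E2f6, the Polycomb-linked repressor, went from 3506 to 3847, a difference of −0.07. Neither stood apart from probes of its level, since both lay within the quartiles.

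The atypical repressors differed in opposite directions. E2f7 went from 170.2 to 216, a difference of 0.14, and E2f8 from 305 to 291, a difference of −0.27. In signal terms E2f7 was 26.9% higher before scaling and E2f8 fell by 4.46%. The gap between them was 0.41, with a combined scanner error of 0.29. Among probes of like level 72.2% were lower than E2f7 and 16.2% were lower than E2f8, so each lies well inside the spread of single probes.

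The pocket proteins also differed in opposite directions. Rb1 encodes the retinoblastoma protein, which mainly restrains the activator E2Fs. The 10 spots of its bright probe had a lowest signal of 1638, a median of 1785 and a highest of 1889 without BSP-II, and 2129, 2292 and 2442 with it. Before scaling these ranges do not overlap, and after scaling they do, from 2.41 to 2.61 and from 2.58 to 2.78 in log2 units above the 75th percentile. The mean difference was 0.16, with an SD over spots of 0.02, and all 10 spots lay above the median of all probes. Spots of 1 probe share 1 RNA sample, so this SD measures the array and not the cells.

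Among the 152 probes with 8 or more spots, the median SD was 0.07 and the quartiles of the difference were −0.24 and 0.05. The difference of Rb1 is above that upper quartile and that of E2f1 is between the quartiles. Rb1 was higher than 86.2% of probes of its level and within their 5th to 95th percentile, −0.35 to 0.24.

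**Figure D3:**
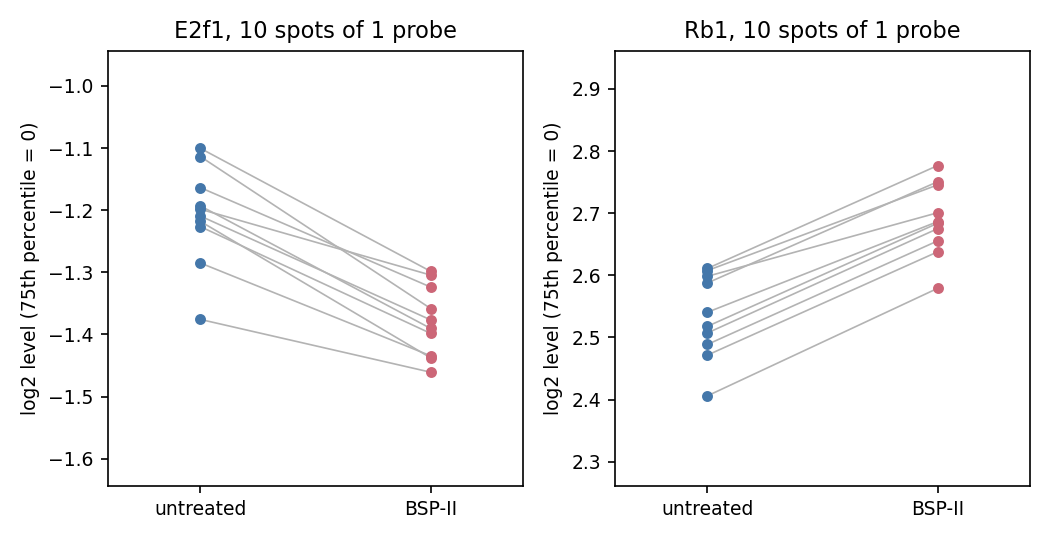
Log2 level of each of the 10 spots of the E2f1 probe and of the Rb1 probe on the untreated and BSP-II arrays, relative to the 75th percentile of each array, with lines joining the same spot position. All 10 E2f1 spots lie lower and all 10 Rb1 spots lie higher on the BSP-II array.

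The other Rb1 probe gave 9.98 without BSP-II, which is not well above background, and 21.3 with it. Against the lowest untreated signal counted as well above background, 11.4, it was 1.62-fold higher, with a scanner error of 0.45 in log2. This rests on 1 dim spot. Detection is called spot by spot, so the value is not a strict lower bound. Rbl1 encodes p107, which binds mainly the repressive E2Fs. Its single spot went from 1156 to 1121, a difference of −0.25. Rb1 and Rbl1 thus differed by 0.40 from each other, with a combined scanner error of 0.29. Among probes of like level 7.6% were lower than Rbl1.

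As a group, 9 of the 13 probes lay below the median of all probes, where by definition 50% of all probes lie. The median of the 13 was −0.12, which is 0.08 below that of all probes, and they ran from −0.57 to 0.17. For 8 of them the distance from the median of all probes was within the scanner's error. That error was nearly the same for each measured member probe except that of E2f4. It was larger than the spread over spots of repeated probes, which had a median SD of 0.07. The share of all probes within their own error was not computed. The quartiles of all probes, −0.22 and 0.11, lie closer to their median of −0.04 than the median scanner error of 0.21. With 1 probe a gene, 7 of the 10 genes lay below the median of all genes, −0.03.

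The genes that work with E2Fs and pocket proteins were described through 11 lists, with 1 probe a gene. Over all 12864 genes measured on both arrays 1.21% were at least 1.5-fold higher and 4.84% at least 1.5-fold lower. The DP partner Tfdp1 went from 3679 to 3688, a difference of −0.20, and Tfdp2 from 563 to 668, a difference of 0.04, with 0.66 at its other probe. Rbl2, which encodes p130, went from 111 to 128, a difference of 0.00, with 0.22 at its other probe. The DP genes therefore lay on either side of the median of all genes, and Rbl2 just above it.

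The MuvB core joins p107 or p130 with E2F4 or E2F5 in the DREAM complex, and joins B-Myb and FoxM1 to drive mitotic genes. Of its 7 listed genes 5 lay below the median of all genes, and the median was −0.19. The B-Myb gene Mybl2 was at −0.23 and Foxm1 at −0.25. Lin54, the DNA-binding subunit, was at −0.19, Lin52 at −0.05, Lin9 at −0.01 and Lin37 at 0.24. Rbbp4, a histone chaperone of the core, was the only one at least 1.5-fold lower. It went from 9242 to 3838, a difference of −1.47, but its other probes gave −1.96 and −0.19.

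Cyclins and kinases that inactivate the pocket proteins were measured in 7 of 10 listed genes, and 6 lay below the median of all genes. The D-type cyclin Ccnd2 went from 51950.0 to 48809, a difference of −0.30, with −0.24 and −0.61 at its other probes. Ccne1 and Ccne2, the E-type cyclins and well-known E2F targets, were at −0.26 and −0.28, with −0.36 and −0.27 at their other probes. Ccna2 was at −0.26, Cdk2 at −0.16 and Cdk4 at −0.07. Ccnd3 was the exception, at 0.22. None of the 7 was 1.5-fold different, and the median was −0.26.

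The kinase inhibitors, which keep pocket proteins active, had a median of 0.03, with 2 of 7 below the median of all genes. Cdkn2a, which encodes the CDK4 and CDK6 inhibitor p16 and the p53 regulator ARF, was the only one at least 1.5-fold lower. It went from 629 to 408 over 10 spots, a difference of −0.83. Cdkn1a was at 0.17, Cdkn2b at 0.08, Cdkn1c at 0.05, Cdkn2d at 0.03, Cdkn2c at 0.02 and Cdkn1b at −0.16. Of genes that act in E2F turnover, the cyclin F gene Ccnf was at −0.46, Cks1b at −0.26 and Fzr1 at 0.10.

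Genes that E2Fs are known to activate for S phase lay low together by small amounts. Of 38 measured, 32 lay below the median of all genes, against 50% of all genes, and the list's median was −0.19. None was 1.5-fold different, and they ran from −0.50 to 0.19. The thymidylate synthase gene Tyms went from 3529 to 2884, a difference of −0.50, with −0.39 at its other probe. The licensing factor Cdc6 gave −0.38 and, by a second probe, −0.19. The replication clamp Pcna was at −0.37 and the uracil glycosylase Ung at −0.37. Mcm4, a helicase subunit, was at −0.32, and Mcm10, a factor of fork assembly, at −0.31. Each marker list of cell types also had a median below that of all genes. The bright plasma cell markers were at −0.16, with 8 of 10 measured genes below the median of all genes. The other lists were mostly dim, and the dimmest probes lay lower on these arrays, as the probes at the level of E2f4 show. B lineage markers were at −0.22 with 6 of 6, and T cell markers at −0.29 with 5 of 7. The median untreated signal of all 8 B lineage markers, with the unmeasured Pax5 and Blk included, was 23.4. The 6 measured ones ran from 12.6 (Cd22) to 17742 (Cd79b). Macrophage markers were at −0.13 with 3 of 5 and fibroblast markers at −0.10 with 4 of 6. Of lists not picked as E2F targets, the kinase inhibitors (0.03), RB corepressors (0.01) and E2F6 Polycomb genes (0.00) lay just above the median of all genes. Others lay below it: the G1 and S cyclins and kinases (−0.26), E2F turnover genes (−0.26), MuvB list (−0.19) and DP partners (−0.08). The apoptosis genes that E2F1 is known to activate lay near it, at −0.01. The cause of the low positions was not tested.

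Genes of G2 and mitosis that MuvB complexes are known to control also lay low, by an amount like that of the plasma cell markers. Of 28 measured, 23 lay below the median of all genes, with a median of −0.15 and no gene 1.5-fold different. Ccnb2 was at −0.47, Cdc20 at −0.41 and Ube2c at −0.35. Cdc25c was at −0.36, with −0.20 at its other probe. Ccnb1 was at −0.34, with −0.35 and −0.31 at its other probes, and Aurka at −0.29. These lists overlap in content with cell cycle lists already seen on these arrays, so their counts are not independent of that earlier view.

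**Figure D4:**
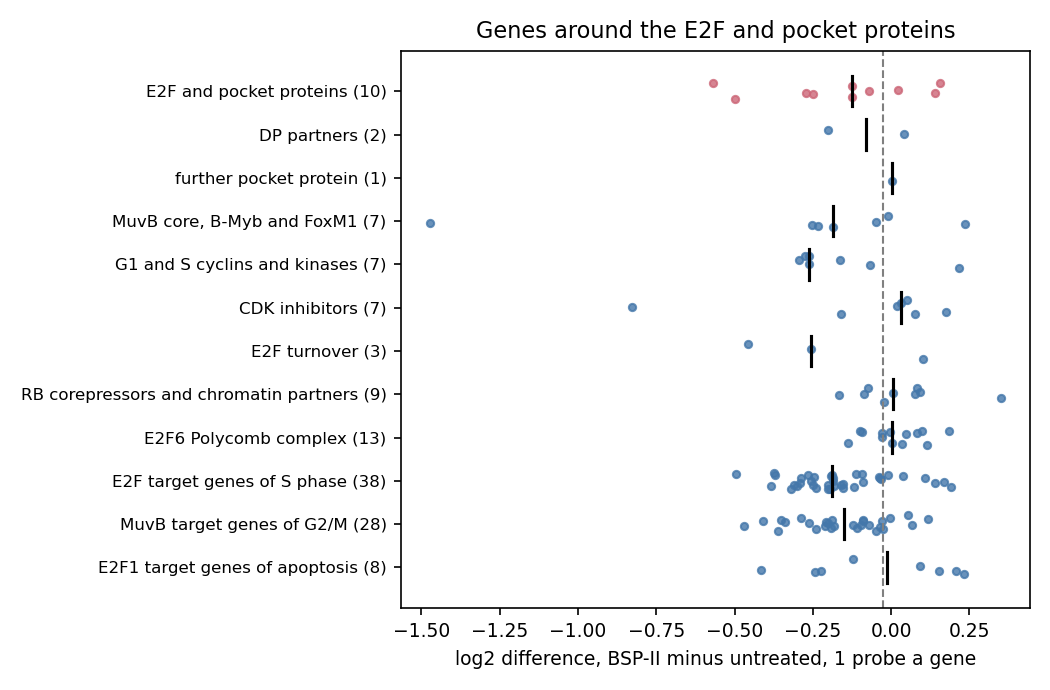
Log2 difference (BSP-II minus untreated) of each measured gene, 1 probe a gene, in the members (red) and the 11 lists (blue); black bars are list medians, numbers in brackets are measured genes, and the dashed line is the median of all genes. The S phase and G2/M lists lie mostly left of the line, and Rbbp4 at −1.47 and Cdkn2a at −0.83 are the points furthest from it.

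The arrays carried 45018 spots. Probes detected well above background numbered 24683 without BSP-II and 27284 with it. No gene spot was saturated, and both arrays lay on 1 slide. Marker signals are summed here before scaling, so a rise or fall is to be read against the 75th percentiles of 309 and 356. The scaled differences stand with the S phase genes. Plasma cell markers were detected for 10 of 10 genes on both arrays, with summed signals of 368703 and 387307. B lineage markers were so for 6 of 8, with sums of 19645 and 20824, and Pax5 and Blk were not. Most of the B lineage sum was Cd79b, at 17742 and 19144.5. Summed signals were 719 and 670 for T cell, 3330 and 3169 for macrophage and 146 and 163 for fibroblast markers. Of these, 7 of 8, 5 of 7 and 6 of 8 were well above background without BSP-II, and 8, 6 and 6 with it. Most of the macrophage sum was Mpeg1, at 3138 and 2912, while Lyz2, at 2.38 and 3.49, was not well above background. Their part in the members' differences was not tested.

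Under 9 other ways of processing the arrays, most members kept their side of the median of all probes. Distances here are from the median of all probes under the same processing. E2f2 was below it in 9 of 9, by a distance of −0.56 to −0.31, against −0.53 as reported. Rb1 at its bright probe was above it in 9 of 9, at 0.15 to 0.41, against 0.19. The −0.31 and the 0.41 both came without the filter on dim probes. E2f8 was below it in 9 of 9, E2f7 was above it in 8 of 8 that measured it, and Rbl1 was below it in 8 of 9. With local medians subtracted, which removes gradients over the array, the log2 difference was −0.53 for E2f2, 0.18 for Rb1 and −0.20 for Rbl1.

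**Figure D5:**
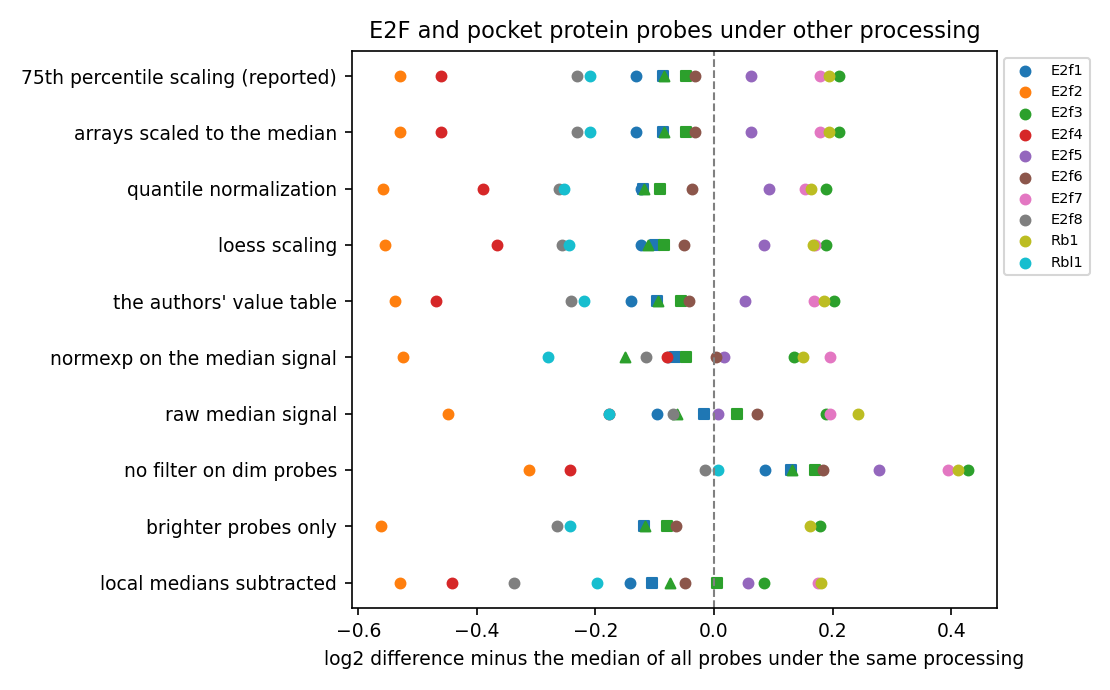
Log2 difference of each measured member probe minus the median of all probes under the same processing, for the reported scaling and 9 alternatives; colours are genes and marker shapes are probes of a gene. E2f2 (orange) stays furthest left in each row, and Rb1 (olive), E2f7 (pink) and 1 E2f3 probe (green circle) stay right of the dashed line.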

How the data were processed

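RNA of hybridoma cells was labelled with Cy3 and hybridised to 2 Agilent arrays, 1 per dose. The design text speaks of 2 independent experiments, and the arrays used here both carry replicate number 1. The scans were read by Agilent Feature Extraction (version 10.5.1.1 according to the submitters' processing notes). Per the file headers, the deposited files give as intensity the background-subtracted processed signal with its error, and the median brightness of the spot and its background. The deposited flags (other values) mark saturated, outlier and well-above-background spots. The authors' deposited value table is on a log2 scale: a shift of −4.85 (untreated) and −4.94 (BSP-II) turns the scanner's log2 values into it, within 0.001 for 99.8% of its 23296 probes. Its column medians are 2.88 and 2.99; the origin of the shift, and so the centring, is unknown here.

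Probes were named through accessions in a RefSeq table of GRCm38.p6, which served only for naming since the headers give mm9 as the array's build. Of 41163 probes, 25091 (61.0%) matched 1 gene. The log2 processed signal was reduced by each array's 75th percentile, 189 outlier spots were left out, spots of a probe were averaged, and a probe was measured if, on both arrays, no more of its spots were dim than were well above background. Listed genes were represented by the probe with the highest mean level. Named were all member probes, genes of lists of up to 10, and up to 6 genes furthest from the median of all genes in longer lists; some are not reported here. A patch of strongly differing spots means that 2 or more others within 3 rows and columns were past 2-fold the same way. With 1 array per group no p-value exists; the number of arrays limits the precision. Members and lists were chosen with earlier results of these data known. Alternatives were median, quantile and loess scaling, the value table, normexp (offset 50, run on the median signal, the mean being absent from these files), the raw median signal, no filter on dim probes, brighter probes only, subtraction of local medians (10 rows and columns each way), probes combined by their median, and a smaller and a larger (2-fold) threshold. The work used Python 3.11.15, numpy 2.4.6, pandas 2.3.3, matplotlib 3.10.9, R 4.3.3 and limma 3.58.1.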

Additional observations from a re-analysis of the deposited data

How the results depend on the processing

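No paired analysis was possible because each group is 1 array. Median scaling cannot change the count of member probes below the median of all probes. That count was 7 to 9 under 8 of the 9 processing alternatives. It was 7 of 9 measured with brighter probes only. With the raw median signal it was 7 of 13, and the members' median was only 0.02 below that of all probes. Without the filter on dim probes the count was 3 of 14 rather than 9 of 13, and the members' median was 0.15 above that of all probes rather than 0.08 below it. There 1 probe rather than 0 was at least 1.5-fold different, the dim Rb1 probe. That setting brings in probes at the floor, and the median of all probes fell to −0.26. At the smaller fold threshold, 2 member probes were past it, E2f2 and E2f4, both lower. E2f4 moved from −0.50 to −0.08 with normexp, and the cause was not tested. The medians of the S phase list stayed 0.09 to 0.19 below that of all genes in 10 of 10 alternatives, as −0.19 to −0.09, and those of the G2/M list at −0.13 to −0.05. Median scaling cannot change these distances either. Signal over background limits E2f4 and the second Rb1 probe most, and with 1 array per dose no difference has a replicate check.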

Other observations

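Other partners of the family lay near the middle of all genes. The Polycomb complex that E2F6 joins was measured in 13 of 13 genes, with a median of 0.00, 5 below the median of all genes and none 1.5-fold different. The histone methyltransferase genes Ehmt2 and Ehmt1 were at 0.18 and 0.10, the reader of histone methylation Cbx3 at −0.14 (other probe −0.63) and Wdr5 at 0.12 (other probe −0.03). Corepressors and chromatin partners of RB had a median of 0.01 over 9 of 11 genes, with 3 below the median of all genes. Their median, 0.03 above that of all genes, moved to 0.06 below it with probes combined by their median. With normexp the list's median was at −0.01 from that of all genes. The side on which this list lay thus depended on the choice of probe and on the processing. The remodelling ATPase Smarca2 was at 0.35, but its other probe gave −1.28. The methyltransferase Suv39h1 was at −0.17.

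Genes of cell death that E2F1 is known to activate were split, with 4 of 8 measured genes below the median of all genes and a median of −0.01. Trp73, a relative of p53, went from 298 to 258, a difference of −0.42. The apoptosome gene Apaf1 was at 0.23 and the BH3-only gene Bbc3 at 0.21. Casp8 was at −0.22, Bcl2l11 at −0.12 (other probe −0.08) and Pmaip1 at 0.09.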
